A study of Sus scrofa and Bos taurus with 31 samples.

Results

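Open chromatin of subcutaneous adipose tissue was compared with that of skeletal muscle from the same pigs. The assay was ATAC-seq, in which a transposase cuts DNA that is free of nucleosomes, and a peak is a stretch of the genome where such cuts pile up over the local level. Both animals, P348 and P350, were castrated male Yorkshire littermates slaughtered at 6 months of age, and each gave 1 adipose and 1 muscle library from cryopreserved nuclei of whole tissue. No treatment separates the groups, so the only difference the labels give is the tissue. The peaks of the 4 libraries, out of 31 in the series, were merged wherever they shared 1 bp, which gave 257711 merged regions. A region with a peak in both adipose libraries and in neither muscle library is called an adipose region (27930 regions), and a region with the reverse pattern is called a muscle region (31249 regions), together 59179 of the 257711. A further 36846 regions had a peak in all 4 lists.

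White adipose tissue stores triglyceride in adipocytes, whose identity is set by PPARG, by C/EBP factors and by EBF factors, and it also holds many endothelial, stromal and immune cells. Skeletal muscle holds multinucleate fibres built from sarcomeres, the satellite cells that repair them, and cells of other types. The myogenic factors MYOD1, MYF5, MYOG and MYF6 bind E-boxes, often with the letters CAGCTG, and act together with MEF2 and TEAD factors. Distal open regions vary more between tissues than open promoters do, so a comparison of this kind mainly reads distal elements. Both samples are mixtures of cell types, and fewer cells of a type and weaker accessibility per cell cannot be told apart.

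The tissue labels were first checked at 4 marker genes, each taken with 10 kb on either side. CKM, the creatine kinase of muscle fibres (chromosome 6, 51704021 to 51716935, minus strand, build Sscrofa11.1), had 3 muscle regions and no adipose region. In the 4 libraries its window held 4, 3, 6 and 7 peaks, in the order adipose P348, adipose P350, muscle P348 and muscle P350. A peak covered a CKM transcription start site (TSS) in both muscle libraries, with a fold over local background of 3.24 and 3.19, and in neither adipose library, whose nearest peaks lay inside the gene (folds 2.09 and 2.24). MYOD1, the myogenic determination factor (chromosome 2, 41422522 to 41424236, minus strand), had 1 muscle region, 4.71 kb upstream of its TSS, with folds of 4.81 and 4.78 in the 2 muscle libraries. The MYOD1 TSS itself also carried a peak in adipose P348, with a fold of 2.90, beside 2.81 and 3.35 in muscle. Of the 3 merged regions in the MYOD1 window, 2 had a peak in all 4 lists. The muscle label thus rested on both of its markers, at MYOD1 on the upstream region alone. The adipose label did not rest on its own markers to the same degree.

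PLIN1, the coat protein of the lipid droplet (chromosome 7, 55237517 to 55250797, minus strand), had 1 adipose region, 14.8 kb downstream of its TSS and outside the gene, with folds of 2.55 and 2.79. The highest folds of any peak in the PLIN1 window were 2.92 and 2.79 in adipose and 9.78 and 6.33 in muscle. LEP, the gene of the satiety hormone leptin (chromosome 18, 20106867 to 20124071, minus strand), had no adipose region and 1 muscle region. A peak covered a LEP TSS in both adipose libraries (folds 2.59 and 2.92) and in muscle P348 (2.78), but in muscle P350 none was listed there. Both markers of adipocytes therefore had listed peaks in adipose, but in each window the highest fold was that of a muscle peak.

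The sequences below show the regions on which the comparison turns. They are the 200 bases at the centre of the region of each marker with the highest fold in its weaker animal, and of the strongest region of each set. Regions of EBF1 and MYH1, picked after their values were seen, stand for regulator and fibre genes. LEP had no adipose region to show. All are read 5′ to 3′ on the plus strand of Sscrofa11.1, and capitals mark matches on either strand to CAGCTG (the E-box), TGANTCA (AP-1), TTGCNNAA (C/EBP), AGGTCA (a nuclear receptor site), CATTCC (TEAD) or CAGGAAG (ETS). The PLIN1 region, chr7:55235491-55235690, and the region nearest to MROH9, chr9:63448421-63448620, are intergenic adipose regions. The EBF1 region, chr16:64622292-64622491, is an intronic adipose region. The CKM region, chr6:51726811-51727010, lies between genes, 717 bp from the start of KLC3 and so nearer to it than to that of CKM, and the MYOD1 region, chr2:41429646-41429845, is intergenic. The MYH1 region, chr12:55260630-55260829, overlaps a coding exon of the neighbouring MYH2, and the strongest muscle region, chr1:221359014-221359213, lies in an intron of DOCK8.
PLIN1, adipose: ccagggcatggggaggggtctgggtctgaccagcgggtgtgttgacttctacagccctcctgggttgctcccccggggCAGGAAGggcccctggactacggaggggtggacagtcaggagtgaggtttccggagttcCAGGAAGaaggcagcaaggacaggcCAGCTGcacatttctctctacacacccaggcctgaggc
MROH9, adipose: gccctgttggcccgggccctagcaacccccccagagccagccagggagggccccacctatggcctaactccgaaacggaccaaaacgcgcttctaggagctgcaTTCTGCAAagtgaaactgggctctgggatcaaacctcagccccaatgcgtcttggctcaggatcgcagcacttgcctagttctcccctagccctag
EBF1, adipose: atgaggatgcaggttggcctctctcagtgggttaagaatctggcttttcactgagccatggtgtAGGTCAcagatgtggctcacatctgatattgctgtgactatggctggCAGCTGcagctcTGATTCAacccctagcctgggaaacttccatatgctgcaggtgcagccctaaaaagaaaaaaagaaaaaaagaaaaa
CKM, muscle: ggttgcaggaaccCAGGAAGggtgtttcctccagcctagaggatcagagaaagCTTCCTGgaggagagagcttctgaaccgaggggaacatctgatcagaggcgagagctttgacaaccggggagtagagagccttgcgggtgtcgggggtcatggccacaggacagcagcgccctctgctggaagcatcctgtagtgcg
MYOD1, muscle: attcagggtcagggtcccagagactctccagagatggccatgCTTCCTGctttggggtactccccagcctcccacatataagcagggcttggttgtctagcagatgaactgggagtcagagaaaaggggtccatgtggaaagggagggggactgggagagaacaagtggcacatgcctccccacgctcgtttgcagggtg
MYH1, muscle: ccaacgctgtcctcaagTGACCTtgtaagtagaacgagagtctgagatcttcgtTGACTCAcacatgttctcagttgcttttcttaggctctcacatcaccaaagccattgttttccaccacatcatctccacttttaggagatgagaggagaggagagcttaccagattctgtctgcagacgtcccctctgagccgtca
DOCK8 intron, muscle: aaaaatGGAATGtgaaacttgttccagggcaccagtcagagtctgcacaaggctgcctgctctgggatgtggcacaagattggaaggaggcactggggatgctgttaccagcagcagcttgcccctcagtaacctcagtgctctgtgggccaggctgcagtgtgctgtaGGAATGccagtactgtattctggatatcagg

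The printed bases differed in repeat content. In the reference genome 84.5% of the MROH9 sequence and 100% of the EBF1 sequence are soft-masked as repeats, against 0% of the PLIN1, MYOD1 and DOCK8 sequences and 11% of the MYH1 sequence. The MYH1 sequence holds an AP-1 match and a nuclear receptor match, as the EBF1 adipose sequence also does, and the DOCK8 sequence holds 2 TEAD matches. The E-box CAGCTG lies in the PLIN1 and EBF1 adipose sequences and in none of the printed muscle sequences. A letter match describes the sequence only, since binding was not measured.

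The adipose lists were longer than the muscle lists, and their peaks were weaker. Adipose held 163921 peaks in P348 and 115901 in P350, and muscle held 125828 and 99960. Within each animal the adipose list was the longer one, and the mean log2 difference was 0.30. An exact two-sided permutation test over the 4 libraries gave p = 0.667, and 2 libraries against 2 cannot give a p below 0.333. The median −log10 q of a peak was 1.86 and 1.85 in adipose against 6.57 and 9.74 in muscle, and the groups did not overlap. Peaks with q under 0.0001 made up 13.12% and 11.08% of the adipose lists and 63.1% and 74.5% of the muscle lists. At that stricter limit the order of the lists turned, with 21513 and 12842 peaks in adipose against 79389 and 74451 in muscle. In the series' 2 cattle the order of list length differed, with 62000 adipose and 108563 muscle peaks in M08 and 140106 and 126829 in M22. Peaks with q under 0.0001 made up 18.7% and 11.3% of the cattle adipose lists and 54.1% and 51.9% of the cattle muscle lists. The peak files hold no read counts and read depth was not used here, and the part of list strength in the results that follow was not tested except where lists of equal length or stricter limits are given.

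The 2 animals shared fewer peaks in adipose than in muscle. The bases covered by both adipose lists were 0.268 of the bases covered by either (the Jaccard index), against 0.536 for the 2 muscle lists. Between tissues the index was 0.193 to 0.228 over 4 pairs, so the adipose pair was closer to the level between tissues than to that of the muscle pair. Of the regions with a peak in adipose and none in muscle, 122888 were seen in either animal and 22.7% in both. The same share for muscle was 55.1% of 56730. The largest single class of all was the 64332 regions seen in adipose P348 alone.

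**Figure D1:**
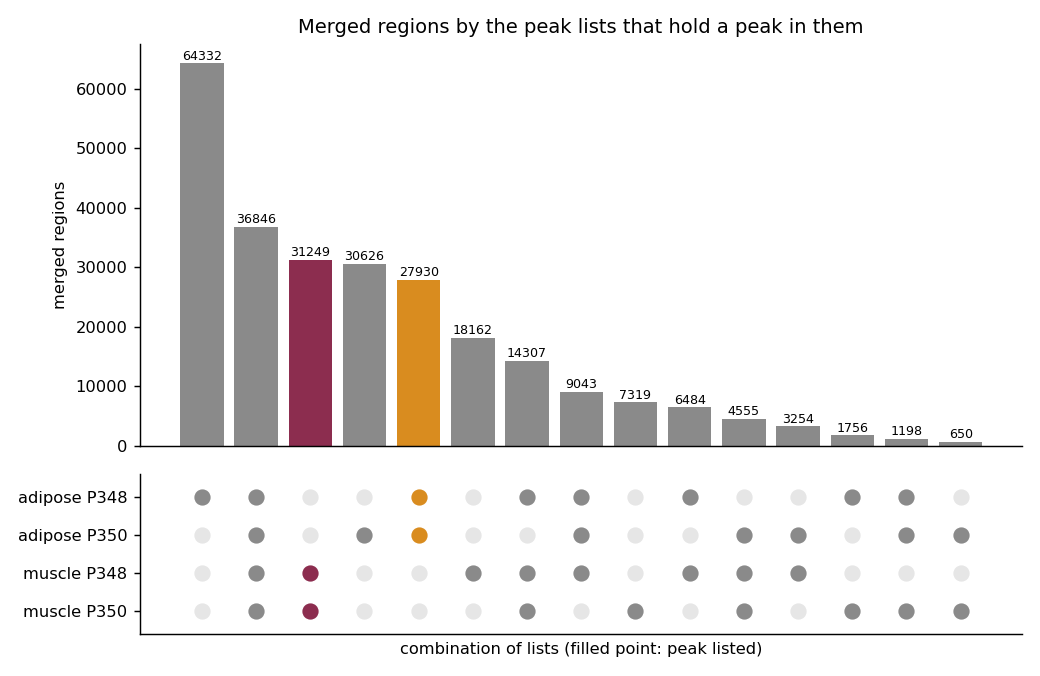
Number of merged regions (y axis) for each combination of the 4 peak lists, shown by the filled points under each bar, with adipose regions in orange and muscle regions in dark red. Regions of adipose P348 alone form the tallest bar (64332), and the 27930 adipose regions fall below the 31249 muscle regions.

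Adipose regions were wide and low, and muscle regions were narrow and high. The median width was 896 bp (quartiles 590 and 1290) for adipose regions and 548 bp (quartiles 355 and 975) for muscle regions. Regions with a peak in all 4 lists had a median of 1488 bp. With a single animal defining the sets the difference in median width was 112 bp in P350 and 102 bp in P348. The fold in the weaker animal had a median of 2.71 in adipose regions and 3.69 in muscle regions, and its highest value was 12.4 and 18.9. In 204 adipose regions, or 0.730% (Wilson 95% interval 0.637% to 0.837%), both adipose peaks had q under 0.0001, and in muscle 23311 regions, or 74.6% (74.1% to 75.1%), met the same limit in both muscle peaks. These intervals cover counting error over regions only, since regions of 1 library are not replicates. Among the regions that strong in their own tissue, chosen after seeing the data, the order of the widths turned, with medians of 358 bp in adipose and 525 bp in muscle.

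With the 99960 best peaks by q taken from each list, the adipose set shrank to 17977 regions and the muscle set grew to 35364. The width difference held at medians of 892 and 584 bp. With lists limited to q under 0.0001, 384 adipose and 47061 muscle regions remained, with medians of 506.5 and 742 bp. Most adipose regions thus rested on the weaker part of the adipose lists, whereas the muscle set grew as weak peaks of adipose were dropped.

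Both sets lay mainly away from promoters. A region was called TSS proximal when it came within 2 kb of a protein-coding TSS, and otherwise genic when it overlapped a protein-coding gene. TSS proximal regions made up 4.59% of adipose regions (1281) and 5.63% of muscle regions (1758), against 34.8% of regions with a peak in all 4 lists. Muscle regions were mostly genic, with 62.0% in gene bodies and 31.0% intergenic. Adipose regions were divided more evenly, with 45.2% genic and 48.4% intergenic. The median distance to a protein-coding TSS was 50.2 kb in adipose and 31.1 kb in muscle. The difference in TSS proximal share, of −1.04 percentage points, was −1.18 and −1.78 when each animal was taken alone, and it was −0.89 with lists of equal length. It was −5.34 at q under 0.0001, −0.082 when TSS proximal meant within 500 bp, and 0.20, the opposite direction, among the regions strong in their own tissue. The X chromosome carried 175 adipose regions (0.627%) and 1036 muscle regions (3.32%). The windows of DMD and FGF13, both on the X, held 51 and 39 muscle regions. The X share of all merged regions is not given here, so neither set can be called depleted or enriched there.

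**Figure D2:**
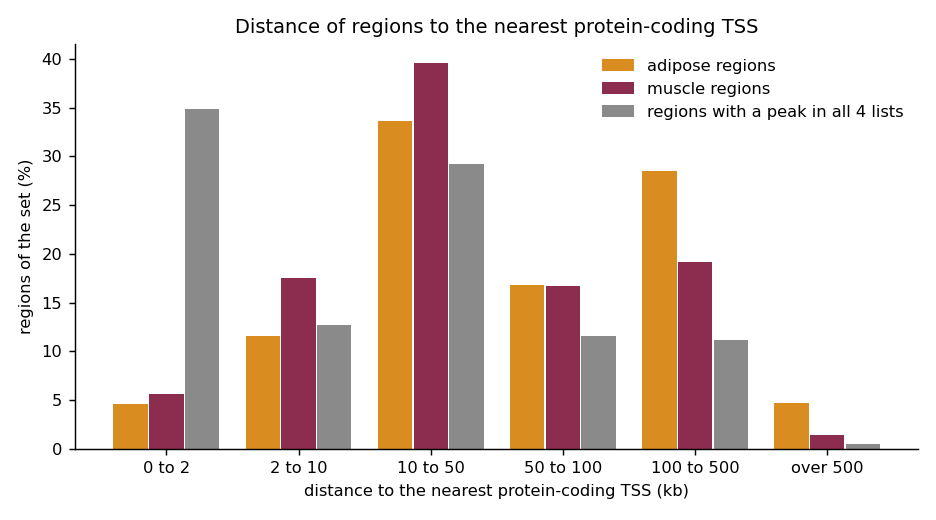
Share of adipose regions, muscle regions and regions with a peak in all 4 lists (y axis, percent of the set) by distance to the nearest protein-coding TSS (x axis, kb). The nearest bin holds 34.8% of regions with a peak in all lists but 4.59% and 5.63% of adipose and muscle regions, and 28.5% of adipose regions lie 100 to 500 kb away against 19.1% of muscle regions.

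The 12 pig libraries of cerebellum, cerebral cortex, hypothalamus, liver, lung and spleen took no part in choosing the regions. Adipose regions had a peak in the other tissues more often than muscle regions did, in 12 of 12 libraries. The widest gap was in lung P350, where 71.1% of adipose and 26.1% of muscle regions had a peak. Cortex P350 showed the narrowest gap, at 39.8% and 29.8%. Averaged over the animals, the difference was 38.9 percentage points in lung, 33.7 in cerebellum, 26.9 in hypothalamus, 20.8 in liver, 18.5 in spleen and 11.2 in cerebral cortex. The mean over the 6 tissues was 25.0 points (exact two-sided sign-flip permutation test over 6 tissues, p = 0.0312, the smallest it can give). All 6 tissues came from the same 2 animals, so they are not independent of each other. With the single base at the middle of each region in place of the whole region, which takes the width out, the mean difference was 16.95 points and each of the 6 tissues again had the higher share in adipose regions. With only 1 animal used to define the sets, the mean was 8.53 points in P350 (p = 0.125) and 6.72 points in P348 (p = 0.0625) by the same exact permutation test, so the call did not hold in either animal alone.

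**Figure D3:**
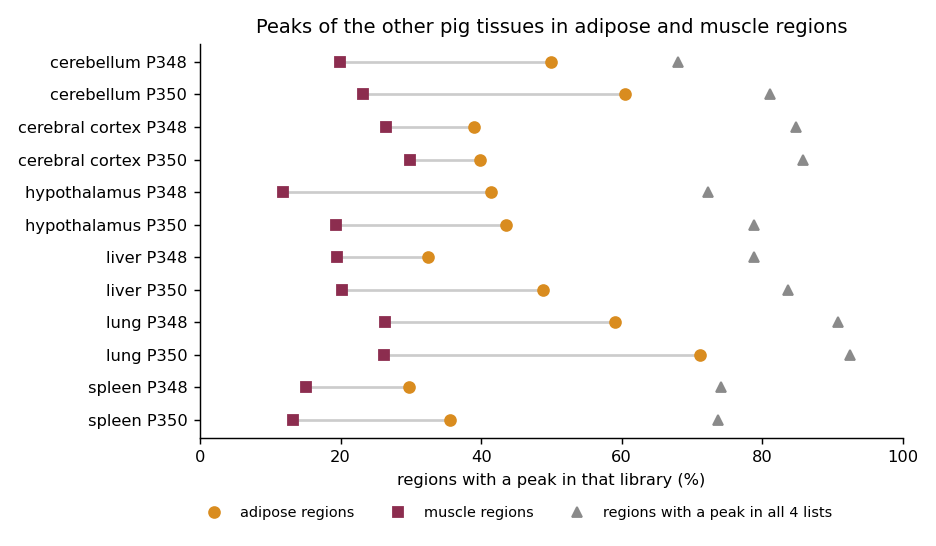
Share of adipose regions, muscle regions and regions with a peak in all 4 lists (x axis, percent) that had a listed peak in each of the 12 libraries of the 6 other pig tissues. The adipose point lies to the right of the muscle point in each library, from 39.8% against 29.8% in cortex P350 to 71.1% against 26.1% in lung P350, and the regions of all 4 lists lie further right.

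Of the muscle regions, 10667 (34.1%) had no peak in any of the 12 other libraries, against 2009 (7.19%) of the adipose regions. An adipose region had a peak in a median of 5 of the 12 other libraries and a muscle region in a median of 2. The muscle regions that no other library shared had a median fold of 3.78 in the weaker animal, and 78.5% had q under 0.0001 in both animals. Both values were near those of all muscle regions, 3.69 and 74.6%. The 2009 unshared adipose regions had a median fold of 2.61, and 6 of them (0.299%) passed that limit. All adipose regions had 2.71 and 0.730%.

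Over all adipose regions 3.88% had a peak in all 12 other libraries. Most of the strongest adipose regions had a peak in more of these libraries than the median of 5. The highest was the one nearest to MROH9, 171556 bp from its TSS on chromosome 9, with folds of 12.4 and 14.1 and a peak in 12 of 12 other libraries. Those nearest to UNC5D and BBS2, with folds of 7.33 and 6.40 and of 5.54 and 9.13, also had a peak in all 12. TMEFF2, SH3BGRL2 and LOC110256969 were nearest to the regions with 9, 10 and 11 such libraries, and the region nearest to DEFB112, a defensin gene, had 3. All of these were intergenic. Soft-masked repeats made up 88.1% of the MROH9 region and 0% to 69.1% of the others named, against 19.1% of the central bases of all adipose regions and 16.2% of those of muscle regions.

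Of the 8 strongest TSS proximal adipose regions, 4 had a peak in all 12 other libraries, against 3.88% of all adipose regions. These 4 lay at P2RY12 (a platelet and microglial ADP receptor), at IFN-DELTA-2 (an interferon) and at 2 unnamed loci. The region at SYT4, a synaptotagmin, had folds of 6.18 and 4.88 and a peak in 11 other libraries, and that in an intron of FYB, an adaptor of haematopoietic cells, had folds of 4.15 and 4.19 and a peak in 10. One region, at LOC100621972 on chromosome 3, had folds of 5.17 and 4.33 and no peak in any other library.

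The strongest muscle regions reached higher folds and were shared less. The first, in an intron of DOCK8 on chromosome 1, had folds of 18.9 and 19.9 and a peak in 1 other library. The second, nearest to RFPL4B, had folds of 18.5 and 18.2 and also a peak in 1. The region 28.1 kb from the TSS of PPP3CA, the catalytic subunit of the phosphatase calcineurin, had folds of 17.5 and 18.2 and no peak elsewhere. Among the 8 strongest muscle regions, 3 had no peak in the other libraries, where the share over all muscle regions was 34.1%. The region in an intron of PARD3B had a peak in 8. At gene starts the strongest muscle regions covered or neighboured KCNS3, a potassium channel subunit (folds 13.7 and 14.7, no other library), PLEKHA5 (12.7 and 12.9, 7 others) and the autophagy protease gene ATG4A on the X chromosome (12.6 and 13.3, no other library).

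**Figure D4:**
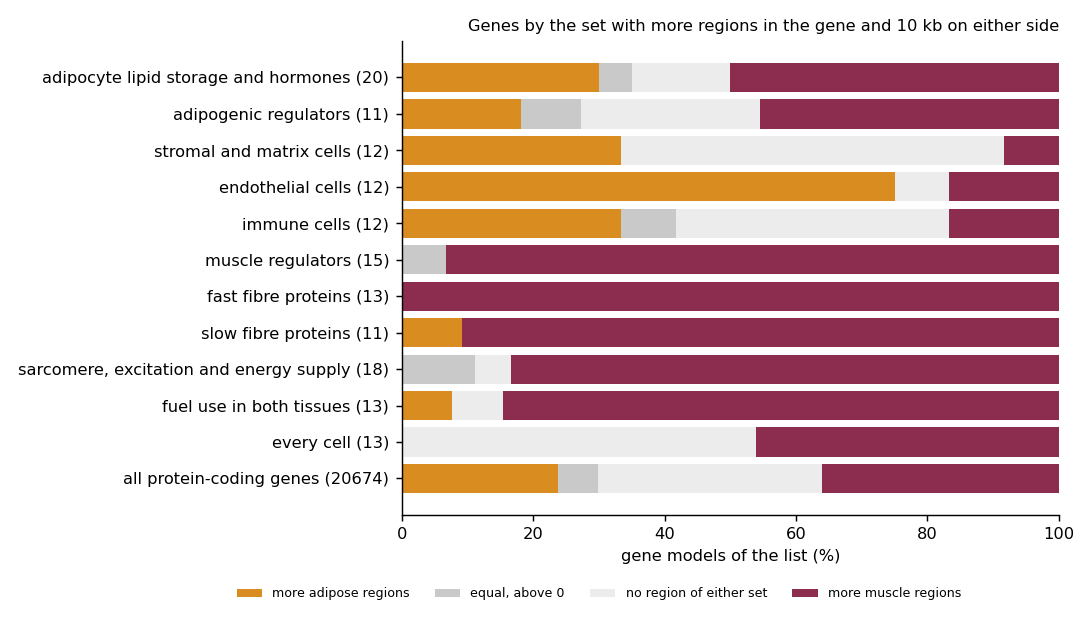
Gene models of each list (y axis, number of models in brackets) by whether the gene and 10 kb on either side held more adipose regions, more muscle regions, equal numbers above 0, or no region of either set (x axis, percent of models). In the muscle lists 83.3% to 100% of models had more muscle regions, while in the adipocyte list 30.0% had more adipose and 50.0% more muscle regions.

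Genes of muscle held muscle regions almost throughout. Across 4 lists of muscle genes (regulators, fast fibre proteins, slow fibre proteins, and sarcomere, excitation and energy supply; 58 genes, 57 with a gene model, myoglobin being the one without), 52 of 57 had more muscle than adipose regions in the gene and 10 kb on either side. Among all 20674 protein-coding genes the share was 36.1%. In the opposite direction, 1 of 57 muscle genes had more adipose regions, CASQ2 with 4 and 2, against a background of 23.8%. The median was 3 muscle regions and 0 adipose regions per muscle gene, and 0 of both over all genes. Per Mb of window the muscle lists held 95.2 muscle and 4.06 adipose regions, against 18 and 11.54 over all genes. With lists of equal length, 53 of 57 had more muscle regions (background 42.7%).

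Among the sarcomere genes, triadin (TRDN), which anchors the calcium release complex of the sarcoplasmic reticulum, had 52 muscle regions and no adipose region. Its window held 5 and 2 peaks in adipose P348 and P350 and 66 and 76 peaks in muscle P348 and P350, with highest folds of 3.68 and 3.36 against 15.6 and 15.3. Titin (TTN), the molecular spring of the sarcomere, had 51 muscle regions, and its window held 9 and 9 peaks in adipose against 76 and 70 in muscle. Nebulin (NEB), the ruler of the thin filament, had 41, with 12 and 7 peaks in adipose against 62 and 64 in muscle. In each of these 3 genes a peak covered the TSS in both muscle libraries and in neither adipose library. These genes are long, and per 100 kb of window TTN held 17.3, NEB 17.1 and TRDN 12.8 muscle regions.

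The fast myosin heavy chains lay in one cluster on chromosome 12, and the windows of MYH1, MYH2 and MYH4 overlap and share regions. MYH1 (55225581 to 55251495, minus strand) had 7 muscle regions. In adipose P348 and P350 its window held no listed peak, and in muscle P348 and P350 it held 7 and 11. The highest was the region whose centre is printed above, 8.95 kb upstream of the MYH1 TSS, with folds of 12.1 and 10.7 and no peak in the 12 other libraries. MYH2 and MYH4 each had 4 muscle regions, and adipose listed 1 peak per animal in the MYH2 window and none in that of MYH4. All 13 fast fibre genes had more muscle than adipose regions. Of the 11 slow fibre genes 10 did, led by MYBPC1, the slow myosin binding protein, with 14 muscle regions and peak numbers of 10 and 3 in adipose against 29 and 28 in muscle. The slow myosins MYH7 and MYH7B each had 4 muscle regions and 1 adipose region. Genes of both fibre types thus held muscle regions in the same libraries.

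Of the 15 muscle regulators 14 had more muscle regions. MEF2C, a transcription factor of muscle and other tissues, had 21, with 12 and 7 peaks in adipose against 46 and 35 in muscle. PAX7, the defining factor of satellite cells, had 11 muscle regions and none of adipose, with peak numbers of 6 and 4 against 14 and 16. A PAX7 TSS was covered in both muscle libraries (folds 2.78 and 2.86) and in neither adipose library. MEF2A had 9, with 4 and 0 peaks in adipose against 13 and 14 in muscle. Myostatin (MSTN), the secreted brake on muscle growth, had no listed peak in either adipose library and folds of 7.90 and 8.63 over its TSS in muscle.

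Genes of adipocytes did not show the mirror image. Of the 20 genes of lipid storage and hormones, 6 had more adipose regions and 10 had more muscle regions. Of 11 adipogenic regulators, 2 had more adipose and 5 more muscle regions. Over both lists 8 of 31 genes, or 25.8%, had more adipose regions, a share near the 23.8% of all protein-coding genes. With lists of equal length it was 7 of 31, or 22.6%, where the background was 16.2%. The median over the 31 genes was 1 adipose and 1 muscle region.

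At adiponectin (ADIPOQ), an adipocyte hormone (chromosome 13, 124633906 to 124646237, plus strand), a region of 2308 bp over the TSS had folds of 3.15 and 3.12 in the 2 adipose libraries and no peak in muscle or in any of the 12 other libraries. Of the 20 genes of lipid storage and hormones it was the one whose own TSS lay in an adipose region, although its intronic peak was shared by all 4 lists, with folds of 5.07 and 5.09 in adipose against 5.89 and 4.95 in muscle. Resistin (RETN) had 1 adipose region, 41 bp from a protein-coding TSS, with folds of 3.18 and 3.32, a peak in 8 of the other libraries, and no muscle peak in its window. FABP4, the fatty acid carrier of adipocytes, had 1 adipose region 7344 bp from the nearest TSS, with folds of 3.14 and 2.88, and no muscle peak either. ACACA, which makes malonyl-CoA for fatty acid synthesis, had 3 adipose and 5 muscle regions, and its highest folds were 4.64 and 4.08 in adipose against 11.43 and 12 in muscle. The gene of the droplet protein CIDEA had 1 adipose region, 1042 bp from the nearest TSS, that no other library shared. The lipase LPL and the droplet protein CIDEC had neither adipose nor muscle regions, and the window of each held 4 regions with a peak in all 4 lists. The highest CIDEC folds were 5.50 and 5.61 in adipose against 12.52 and 11.49 in muscle.

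EBF1, a factor of adipocyte precursors and of B cells (chromosome 16, 64357999 to 64753188, plus strand), had 7 adipose regions and no muscle region. Its window held 51 and 27 peaks in adipose P348 and P350 and 15 and 9 in muscle P348 and P350. EBF1 was named for its number of adipose regions, so more adipose peaks partly follow from that choice. The folds of its adipose regions ran from 2.39 to 4.32, and 1 of the 7 had no peak in other libraries. EBF2 had 6 adipose and 3 muscle regions, and EBF3 had 4 and 9. PPARG, the master factor of adipogenesis, had 1 adipose region, over 1 of its 8 annotated starts, with folds of 2.73 and 2.84, and 2 muscle regions. Another PPARG start was covered in all 4 libraries, with folds of 4.02 and 3.82 in adipose against 4.15 and 3.32 in muscle. The gene of ZNF423, an early preadipocyte factor, had 3 adipose and 15 muscle regions.

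Genes of endothelial, stromal and immune cells, types that are not limited to adipose tissue, were counted in the same way. The endothelial list held the most genes with more adipose regions. Of 12 endothelial genes 9 had more adipose regions and 2 more muscle regions, where all genes stood at 23.8% and 36.1%. FLT1, a receptor of vascular endothelial growth factor, had 12 adipose regions and no muscle region, and its window held 30 and 32 peaks in adipose against 19 and 10 in muscle. The endothelial factor ERG had 14 and 2, with 48 and 33 peaks in adipose against 13 and 8 in muscle. VWF, the clotting carrier protein of endothelium, had 4 and 2. In the stromal list 4 of 12 had more adipose and 1 more muscle regions, with FBN1 (fibrillin) at 7 and 0 and the collagen chain COL6A3 at 4 and 1, while the matrix protein gene DPT had 4 muscle regions and none of adipose. Of 12 immune genes 4 had more adipose and 2 more muscle regions, and PTPRC, the common leukocyte antigen CD45, had 5 and 0, with 15 and 8 peaks in adipose against 1 and 0 in muscle. CSF1R, the receptor of macrophage growth factor, had 5 muscle regions and none of adipose, and the B cell gene CD79B had 3 muscle regions and 1 of adipose. The PTPRC regions had a peak in 2 to 12 of the other libraries. Their folds in adipose stayed between 2.53 and 3.98.

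With lists of equal length the endothelial count was 7 more adipose and 3 more muscle (background 16.2% and 42.7%), the stromal count 2 and 2, and the immune count 3 and 2. Among the regions strong in their own tissue, 204 of them in adipose, the endothelial count was 0 more adipose and 4 more muscle. The stromal count was then 0 and 1 and the immune count 0 and 4 (background 0.295% and 39.8%).

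Genes of fuel use, which both tissues need, leaned to muscle. Of 13 genes 11 had more muscle regions and 1, ACADVL, more adipose regions. The fatty acid transporter gene CD36 had 10 muscle regions and none of adipose, with 4 and 4 peaks in adipose against 21 and 14 in muscle, and the insulin receptor gene INSR had 8 and none. PPARGC1A, a coactivator of mitochondrial biogenesis, had 20 muscle and 10 adipose regions. Of 13 gene models of genes used in every cell, 6 had more muscle regions and none more adipose regions, led by PGK1 with 3 and followed by PPIA and B2M with 1 each. That share, 46.2%, can be read against the 36.1% of all genes, and the part of the stronger muscle lists in it was not tested.

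The other tissues allowed each gene to be placed among all 8 pig tissues, by the bases of listed peaks in its window per Mb covered by the whole list, averaged over the animals. Skeletal muscle came first for 54 of the 57 muscle genes (94.7%), against 31.9% of all protein-coding genes. The exceptions were CASQ2, where adipose came first, PAX3 and CHRNA1. Adipose came first for 2 of the 31 adipocyte and adipogenic genes (6.45%), RETN and EBF1, against 11.6% of all genes. Muscle came first for 18 of the 31 (58.1%). It also came first for 7 of 13 models of genes used in every cell (53.85%) and for 12 of 13 fuel use genes (92.3%). Of 12 endothelial genes adipose came first for 2 (16.7%), FLT1 and VWF, and muscle for 1 (8.33%). Of 12 stromal genes adipose came first for 2 (16.7%), COL1A2 and PI16, and muscle for 5 (41.7%). Of 12 immune genes adipose came first for 1 (8.33%), SPI1, and muscle for 2 (16.7%).

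When only regions with no peak in the other 12 libraries were kept, a subset chosen after seeing the data, the adipocyte genes stood above all genes. At least 1 such adipose region lay at 7 of the 31 adipocyte and adipogenic genes (22.6%, with window lengths not matched), namely ACACA, ADIPOQ, CIDEA, PLIN1, EBF1, EBF2 and ZNF423, where the share over all genes was 7.99%. At none of the 57 muscle genes did such an adipose region lie. Of the 12 endothelial, 12 stromal and 12 immune genes 1 each had one (FLT1, COL6A3 and CD3E). Muscle regions that no other library shared lay at 39 of the 57 muscle genes (68.4%) and at 11 of the 31 adipose genes (35.5%), where the share over all genes was 25.5%. DMD, the dystrophin gene, had 34 of them, PDE4D 26, NEB 25, TRDN 24, TTN 19, ZBTB20 18 and RORA 17.

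The genes with the most regions were long ones in both sets, with lengths above the median of 19.2 kb of all coding genes. DSCAM, a neuronal adhesion molecule on chromosome 13, led the adipose set with 48 adipose regions and 1 muscle region over 725 kb. Its window held 108 and 79 peaks in adipose against 12 and 4 in muscle. The next were DPP6 with 35, CSMD1 with 33, DLGAP2 with 32, TENM2 and RASGEF1B with 31 each, and RBFOX1 with 29, and several of these genes are best known from neurons. Of these genes RASGEF1B was the one where adipose came first among the 8 tissues. The muscle set was led by PDE4D, a phosphodiesterase, with 64 muscle and 2 adipose regions, followed by TRDN, by DMD and TTN with 51 each, by RORA with 45, by NEB, and by ZBTB20 and CDH13 with 40 each. In all 8 of these muscle came first among the 8 tissues, against 31.9% of all coding genes. The 8 were picked for their muscle regions in the same lists, so this order was partly fixed by the choice.

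The central 200 bases of the regions differed in their letters. The E-box CAGCTG lay in 20.7% of muscle regions (Wilson 95% interval 20.2% to 21.1%) and 16.5% of adipose regions (16.1% to 16.9%), against 15.9% of regions with a peak in all 4 lists and 16.7% of all remaining regions. The difference of 4.17 percentage points was 4.79 and 5.51 with each animal alone and 4.003 with lists of equal length, and it fell to 2.23 in the central 400 bases. A match to the MEF2 motif lay in 2.07% of muscle regions, 0.143% of adipose regions and 0.385% of the remaining regions. AP-1 (TGANTCA) lay in 10.7% of muscle, 5.21% of adipose and 7.18% of remaining regions, and C/EBP (TTGCNNAA) in 8.86%, 6.61% and 7.32%. Of the 8 motifs of the first list EBF (TCCCNNGGGA) was the one with the larger share in adipose regions, at 1.60% against 0.627% in muscle and 0.849% in the remaining regions. At q under 0.01 EBF kept the larger share in adipose regions, at 2.21% against 0.79% in muscle. With lists limited to q under 0.0001 the order turned, with EBF in 0.260% of the 384 adipose and 0.810% of the 47061 muscle regions. That adipose value was 1 region. C/EBP (10.42% and 8.19%) and TEAD (13.8% and 11.25%) then had the larger share in adipose. The adipose Wilson 95% intervals were 0.046% to 1.46% for EBF, 7.74% to 13.87% for C/EBP and 10.71% to 17.61% for TEAD. Each held the muscle value, so the 384 regions cannot settle these orders. The ETS letters CAGGAAG, added after seeing the data, lay in 9.85% of adipose and 7.67% of muscle regions. The nuclear receptor letters AGGTCA lay in 14.8% of adipose and 17.7% of muscle regions, CATTCC of TEAD factors in 10.6% and 11.8%, and the full NFI palindrome (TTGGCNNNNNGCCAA) in 0.00716% and 0.0192%. All motifs were searched on both strands, and the GC content of the same bases was 53.5% in adipose, 49.4% in muscle and 51.5% in the remaining regions. The part of GC content in these shares was not tested.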

How the data were processed

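ATAC-seq peak lists of subcutaneous adipose tissue and skeletal muscle from 2 pigs (P348 and P350) were compared, 4 of 31 libraries. The 12 libraries of 6 other pig tissues were read for sharing and for the order among 8 tissues. Cattle adipose and muscle lists were read for their length and q values only. Per the study's methods, cryopreserved nuclei were transposed and size-selected. The authors trimmed reads with Trim Galore 0.4.5, aligned them to Sscrofa11.1 with BWA 0.7.17 and filtered them with SAMtools 1.10. They removed duplicates with Picard 2.18.17 and called broad peaks with MACS2. For its regions of accessible chromatin the study pooled the reads of both replicates, whereas the lists compared here are 1 per library. A shift of reads for the transposase was not given in the sources used here. The authors deposited each peak with a fold (a ratio over local background) and with −log10 p and q values, and these files hold no read counts, so depth was not used here and no interval for it is given. The lists reach a −log10 q of just over 1, above the stated q limit of 0.05.

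Peaks were merged at 1 bp of overlap and the merged regions were sorted by the lists that held them. Regions were placed against 20674 protein-coding genes of NCBI Annotation Release 106 of the same build (TSS proximal within 2 kb, gene windows of 10 kb on either side). Myoglobin had no model there and B2M had 2. Motifs were counted in the central 200 bp on both strands. Wilson 95% intervals cover counting error only. Python 3.11.15, pandas 2.3.3 and SciPy 1.17.1 were used, and the merging and counting were tested on simulated lists.

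Lists were shortened to the 99960 best peaks, limited by q, merged at 500 bp, limited to autosomes, or reduced to 1 animal as alternatives. Both tissues came from the same 2 animals, so the animal pairs the samples. P348 had the longer list in both tissues, and the Jaccard index between tissues was 0.228 and 0.193 within animals against 0.196 and 0.217 across them. The p-value for peak number measures the spread between these few libraries, and that for other tissues the spread between 6 tissues of the same 2 animals.

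The comparison, gene lists and motifs were chosen with earlier results of these data known. Genes named were the 4 markers, the 3 genes of each list with the most regions of its own set (for endothelial, stromal, immune, fuel use and general lists, of either set), and in each set the 8 strongest regions, 8 strongest TSS proximal regions and 8 genes with the most regions, of which some are not reported here. Other genes named, the EBF1 and MYH1 sequences, the ETS motif, the unshared regions, the order among 8 tissues and the regions strong in their own tissue were chosen after seeing the data.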

Additional observations from a re-analysis of the deposited data

How the results depend on the processing

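The direction of peak number turned with the limit on q. The log2 difference of adipose minus muscle was 0.30 in the whole lists, -0.72 at q under 0.01 and -2.21 at q under 0.0001, and 0.21 to 0.38 with 1 animal left out. With the replicate block, in which tissue labels were exchanged within each animal, it stayed at 0.30 (exact permutation p = 0.5, the smallest possible), and the block changed no call. Adipose regions numbered 17977 in lists of equal length, 5982 at q under 0.01, 384 at q under 0.0001, 204 when strong in their own tissue, and 73994 to 96847 with 1 animal. Muscle regions numbered 47061 at q under 0.0001 and 58221 to 59100 with 1 animal. The median width of adipose minus muscle regions became 308 bp in lists of equal length, 132 at q under 0.01, 370.5 with peaks merged at 500 bp, 102 to 112 with 1 animal, and turned to -235.5 at q under 0.0001 and -167 among regions strong in their own tissue. The TSS proximal difference of -1.04 points was -5.34 at q under 0.0001, -0.082 within 500 bp, -1.78 to -1.18 with 1 animal, and turned to 0.20 among strong regions. The other-tissue difference of 25.0 points was 6.72 to 8.53 with 1 animal (exact permutation p = 0.0625 and 0.125) and 16.95 to 58.3 in the other alternatives, each with p = 0.0312. Of the 31 adipose genes, 8 had more adipose regions in whole lists, 3 at q under 0.01, 0 at q under 0.0001 and 0 among strong regions, and 7 to 12 in the rest, while 47 to 57 of 57 muscle genes had more muscle regions throughout. The CAGCTG difference of 4.17 points was 6.40 at q under 0.0001, 8.02 among strong regions, 2.23 in the central 400 bp and 4.79 to 5.51 with 1 animal. The causes of these shifts were not tested. Depth was not used here, so a region without a listed peak was not shown to be closed, and with 2 animals per tissue the exact permutation test of libraries could not reach the threshold.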
